A study of Oryza sativa Japonica Group and Oryza sativa Indica Group with 10 samples.

Results

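OsCIN2 and OsCIN7, which are named as cell wall invertases, and OsSUS3, a sucrose synthase, were followed in young rice panicles of 2 cultivars. The members are the probe sets paired with exactly 1 gene whose symbol or synonym is one of these 3 names. Each gene had 1 such probe set, so that 3 probe sets of the 57258 rice probe sets on the array, and 3 genes of the 17905 paired with a probe set, were described in detail. The gene table held 17 invertase and sucrose synthase genes, and 14 of them had a probe set. The 3 genes were chosen on earlier results of the same arrays, that is on their signals in both cultivars. The cultivar differences of the 3 are therefore given as a description without a test.

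The groups were 5 arrays of 93-11, an indica cultivar, and 5 arrays of Nipponbare, a japonica cultivar. All came from young panicles 2 cm long, named as biological replicates 1 to 5 in each cultivar, with 1 array for each RNA sample. The labels do not say how many plants entered a sample or whether replicates were grown separately, so that the spread and the p-values describe these arrays. The values are probe set signals on a linear scale. They were used as deposited and after scaling of each array to a common trimmed mean, and differences are on the log2(signal + 16) scale, 93-11 minus Nipponbare. Most probes of this array were designed on japonica sequence. A lower 93-11 signal from a mismatched probe and one from less transcript cannot be told apart here.

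Sucrose is the main form in which carbon reaches the panicle, and it has to be cleaved before it can be used. Cell wall invertases hydrolyse it irreversibly to glucose and fructose outside the cell, and neutral invertases do so inside the cell. Sucrose synthases cleave it reversibly in the cytosol to fructose and UDP-glucose, a precursor of cell wall polysaccharides and starch. OsCIN2 is also known as GIF1, a gene needed for normal grain filling in rice. OsSUS3 is known mainly from the developing rice grain.

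The trimmed mean signal was 195.9 to 235.5 on the 93-11 arrays and 204.8 to 377.4 on the Nipponbare arrays, and Nipponbare replicate 2 was the highest. The median log2 difference over all rice probe sets was 0.03 after scaling and -0.16 as deposited. Of the markers of a young panicle, 11 of 13 probe sets exceeded a log10 signal of 2.5 on average in 93-11 and 11 of 13 in Nipponbare. The same held for 0 of 11 endosperm probe sets in both cultivars, for 1 of 6 leaf probe sets in 93-11 and 2 of 6 in Nipponbare, and for 0 of 3 anther probe sets in 93-11 and 1 of 3 in Nipponbare. The study kept probe sets whose median log10 raw probe intensity passed this value in both cultivars. Here the mean log10 of the deposited probe set signals is used, which is a different measure. A mean below 2.5 here therefore does not show that a probe set failed the cut of the study. The 3′/5′ ratio of GAPDH control probe sets, a sign of RNA quality, was 3.38 to 6.32 in 93-11 and 2.82 to 5.72 in Nipponbare.

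OsCIN7 had the lowest 93-11 signal relative to Nipponbare among the 3 genes. As deposited, its signal was 52.3, 57.9, 93.3, 86.1 and 66.5 in 93-11 replicates 1 to 5, against 366, 531, 368, 429 and 301 in Nipponbare replicates 1 to 5. Every 93-11 array lay below every Nipponbare array. After scaling, the signals were 54.5, 72.6, 99.6, 107 and 78.3 in 93-11 and 330, 345, 334, 402 and 361 in Nipponbare, again without overlap. The scaled mean was 82.5 ± 21.3 in 93-11 and 354 ± 29.2 in Nipponbare (SD, n = 5 each), and the Nipponbare mean was 4.30 times the 93-11 mean. The log2 difference was -1.94 ± 0.15 after scaling and -2.25 ± 0.20 as deposited (SE). Its mean log10 signal as deposited was 1.84 in 93-11 and 2.59 in Nipponbare, on either side of 2.5. OsCIN7 lies on chromosome 9 in the RefSeq annotation of ASM3414082v1. In these bulk RNA samples, fewer cells of a type and less RNA per cell cannot be told apart.

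OsSUS3 was also lower in 93-11, with little spread between replicates. As deposited, its signal was 41.7, 43.8, 41.0, 32.6 and 40.7 in 93-11, against 151, 163, 146, 142 and 128 in Nipponbare. The 93-11 arrays were all below the Nipponbare arrays, and replicate 4 was the lowest in 93-11. After scaling, the signals were 43.4, 54.8, 43.8, 40.6 and 48.0 in 93-11 and 136, 106, 132, 132 and 154 in Nipponbare, and the cultivars remained apart. The scaled mean was 46.1 ± 5.52 in 93-11 and 132 ± 17.0 in Nipponbare (SD, n = 5 each), and the Nipponbare mean was 2.86 times the 93-11 mean. The log2 difference was -1.25 ± 0.14 after scaling and -1.53 ± 0.18 as deposited (SE). Its mean log10 signal as deposited was 1.60 in 93-11 and 2.16 in Nipponbare, below 2.5 in both. At these low signals the constant of 16 counts, and the scaled difference was -1.50 with 1 and -0.83 with 64 in its place. OsSUS3 lies on chromosome 7.

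OsCIN2 was lower in 93-11 on average, but whether the cultivars overlapped depended on the scaling. As deposited, its signal was 877, 833, 492, 541 and 1060 in 93-11, against 1312, 1499, 1718, 1540 and 1160 in Nipponbare. The cultivars did not overlap, with 93-11 replicate 5 nearest to Nipponbare replicate 5. After scaling, the signals were 914, 1043, 525, 675 and 1249 in 93-11 and 1184, 975, 1555, 1442 and 1390 in Nipponbare. Here 3 of 5 arrays of 93-11 lay below all Nipponbare arrays. The 93-11 replicate 2 lay above Nipponbare replicate 2, and 93-11 replicate 5 lay above Nipponbare replicates 1 and 2. The scaled mean was 881 ± 288 in 93-11 and 1309 ± 230 in Nipponbare (SD, n = 5 each). The Nipponbare mean was 1.49 times the 93-11 mean after scaling and 1.90 times as deposited. The log2 difference was -0.61 ± 0.21 after scaling and -0.96 ± 0.21 as deposited (SE), and its mean log10 signal as deposited was above 2.5 in both cultivars, at 2.86 in 93-11 and 3.16 in Nipponbare.

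**Figure D1:**
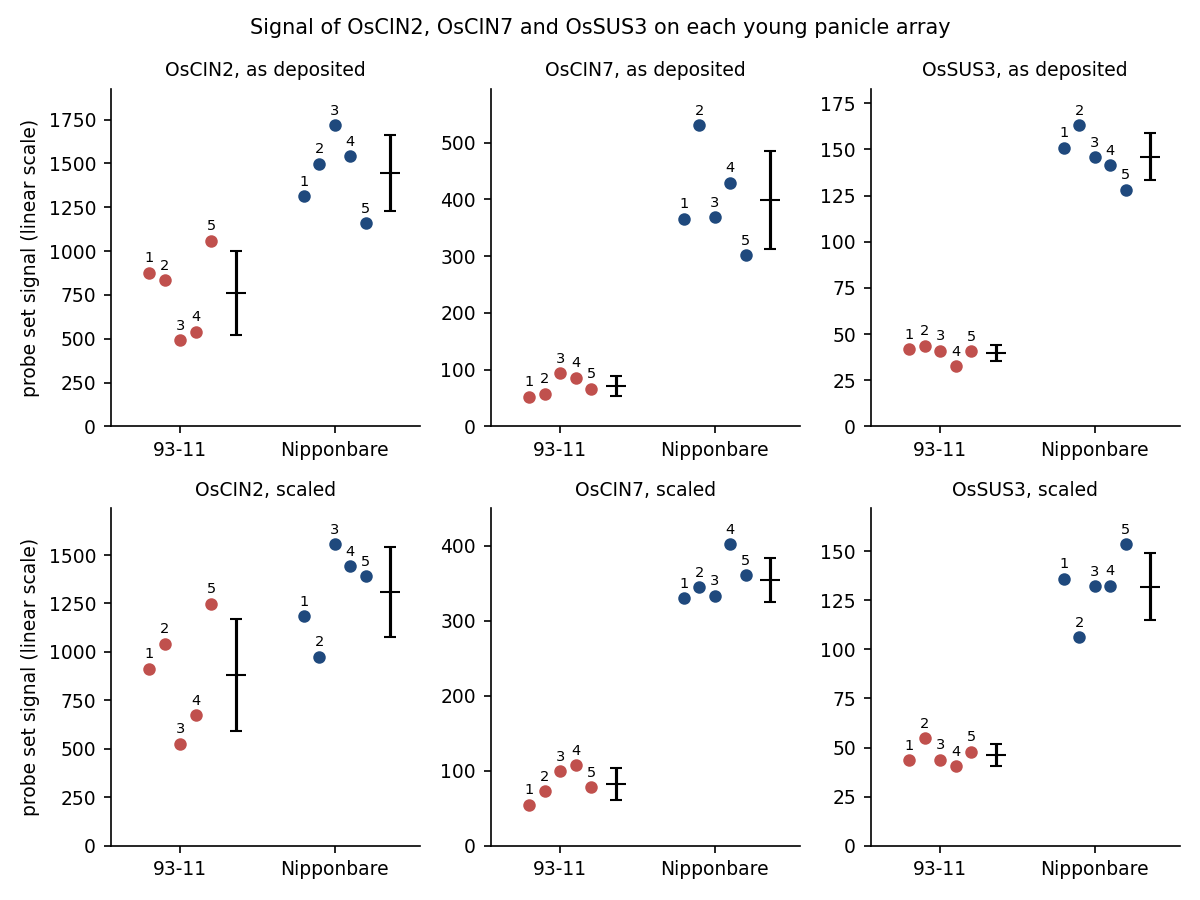
Probe set signal on a linear scale of OsCIN2, OsCIN7 and OsSUS3 on each array, as deposited (top) and scaled to a common trimmed mean (bottom). Points are arrays with their replicate numbers, 93-11 left and Nipponbare right, and bars give the mean and SD (n = 5). The cultivars stand apart in every panel except that of scaled OsCIN2, where 93-11 spans 525 to 1249 and Nipponbare 975 to 1555.

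In the limma fit over all rice probe sets, 2 of the 3 genes had an adjusted p under 0.05 on scaled values and were lower in 93-11, and the background in that direction was 9.21% of all probe sets and 13.6% of those paired with exactly 1 gene. As deposited this held for 3 of 3, with a background of 11.9% of all and 17.8% of the paired probe sets. The cultivars did not overlap for 2 of the 3 after scaling and for 3 of 3 as deposited, against 8.02% and 10.4% of all probe sets with 93-11 lower. These counts follow from the choice of the genes and carry no further reading.

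Replicates of OsCIN2 differed more in 93-11 than those of most probe sets of its level. The SD of its log2 signal on scaled values was 0.50 in 93-11 and 0.27 in Nipponbare. Similar level was judged by the mean log10 signal as deposited over the arrays of both cultivars. Among the 2329 probe sets of similar level, the median SD was 0.18 in 93-11 and 0.15 in Nipponbare, and 97.0% had a lower SD than OsCIN2 in 93-11. For OsCIN7 the SD was 0.39 in 93-11 and 0.12 in Nipponbare, and 77.7% of its 2453 probe sets of similar level had a lower SD in 93-11. Their level lay between its mean log10 signals of 1.84 in 93-11 and 2.59 in Nipponbare, above its own level in 93-11. Their median SD in 93-11 was 0.26, against 0.34 for the dimmer probe sets matched to OsSUS3. The 77.7% thus shows no excess spread of OsCIN7 at its own level in 93-11. OsSUS3 varied less than most, with an SD of 0.17 in 93-11 and 0.19 in Nipponbare, and 8.76% of 2512 probe sets had a lower SD in 93-11.

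The 93-11 arrays on which OsCIN2 was low were those on which OsCIN7 was high. Replicates 3 and 4 had the lowest scaled OsCIN2 signals of 93-11 (525 and 675) and the highest OsCIN7 signals (99.6 and 107). On the same arrays the GAPDH 3′/5′ ratio was 3.38 and 4.05, the lowest in 93-11, against 6.32, 4.74 and 6.15 on replicates 1, 2 and 5. In Nipponbare, OsCIN2 was highest on replicate 3 (1555), the array with the lowest ratio (2.82), so that the order differed there. The part of RNA quality in these signals was not tested. Over the 10 arrays, the deviations from the cultivar means correlated at r = -0.47 between OsCIN2 and OsCIN7, at r = 0.59 between OsCIN2 and OsSUS3 and at r = -0.16 between OsCIN7 and OsSUS3. These values share the arrays and their scaling, and are given as a description.

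**Figure D2:**
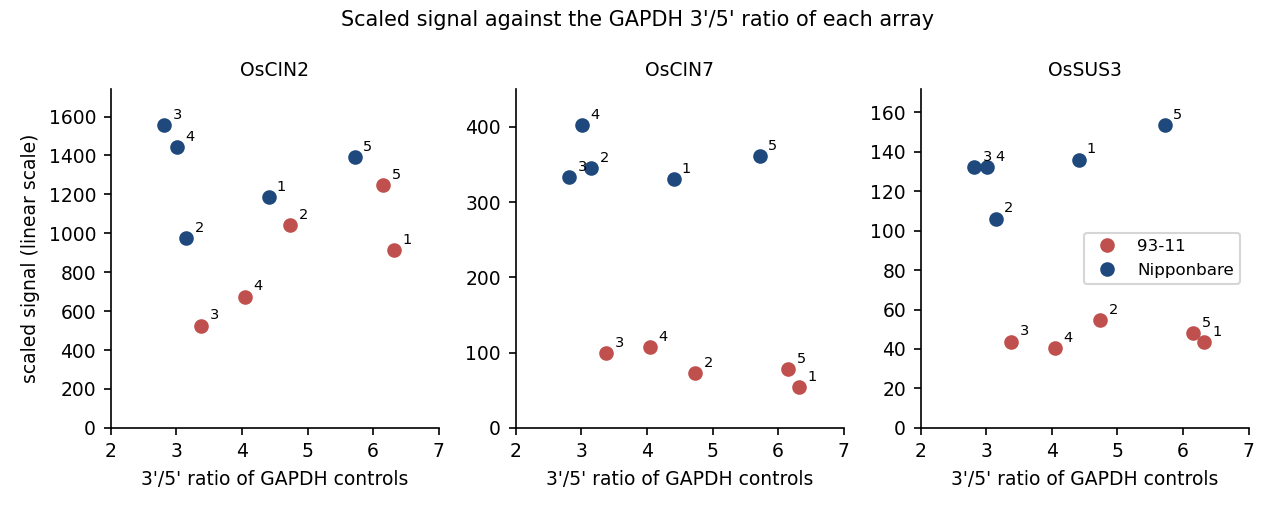
Scaled signal on a linear scale (vertical) against the 3′/5′ ratio of the GAPDH control probe sets (horizontal) for the 3 genes, with 1 point per array and its replicate number, 93-11 in red and Nipponbare in blue. In 93-11, replicates 3 and 4 combine the lowest ratios with low OsCIN2 and high OsCIN7. The ratios of the cultivars overlap only in part, with 3.38 to 6.32 in 93-11 and 2.82 to 5.72 in Nipponbare.

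A ratio of 2 probe sets on 1 array does not change with the scaling of that array. The log2 ratio of OsCIN2 to OsCIN7 was 4.07, 3.85, 2.40, 2.65 and 4.0 in 93-11, against 1.84, 1.50, 2.22, 1.84 and 1.94 in Nipponbare. Every 93-11 array was above every Nipponbare array, with means of 3.39 ± 0.80 in 93-11 and 1.87 ± 0.26 in Nipponbare (SD, n = 5 each). The log2 ratio of OsCIN2 to OsSUS3 was 4.40, 4.25, 3.58, 4.05 and 4.70 in 93-11, against 3.12, 3.20, 3.56, 3.44 and 3.18 in Nipponbare. The cultivars were separated only narrowly, by 93-11 replicate 3 and Nipponbare replicate 3, and the difference of the means was 0.90. The difference was 0.10 when 64 was added to both signals. For OsCIN7 to OsSUS3 the mean log2 ratio was 0.81 ± 0.47 in 93-11 and 1.43 ± 0.21 in Nipponbare, and the cultivars overlapped. The ratios set no level of one gene against another. The genes were chosen on these arrays, so the separation of the cultivars is given as a description.

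**Figure D3:**
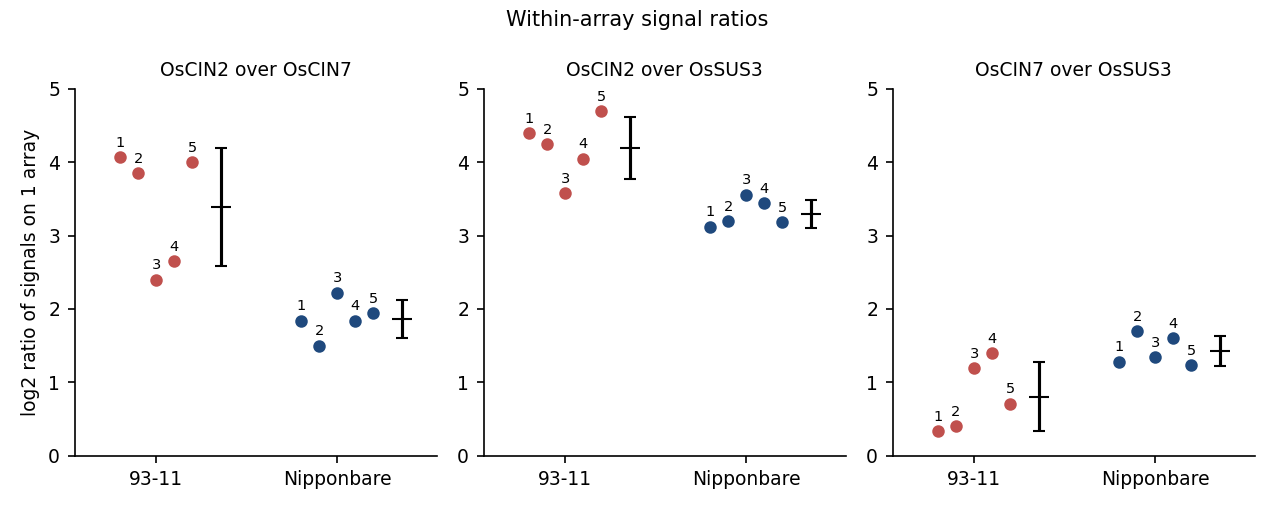
Log2 ratio of the signals of 2 genes on each array, without a constant, for OsCIN2 over OsCIN7, OsCIN2 over OsSUS3 and OsCIN7 over OsSUS3. Points are arrays with replicate numbers, 93-11 left and Nipponbare right, and bars give the mean and SD (n = 5). The first ratio is 2.40 to 4.07 in 93-11 and 1.50 to 2.22 in Nipponbare.

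The other cell wall invertases had low signals and did not exceed a mean log10 signal of 2.5 in either cultivar. OsCIN1 fell in 93-11, with scaled signals of 29.8, 17.5, 39.1, 30.9 and 46.6, against 117, 67.0, 146, 77.1 and 91.3 in Nipponbare. The cultivars did not overlap, and the log2 difference was -1.23 ± 0.22 (SE, limma adjusted p = 0.00141). OsCIN4 had 28.7 ± 4.82 in 93-11 and 47.3 ± 11.4 in Nipponbare, a difference of -0.49 that did not pass on scaled values (adjusted p = 0.0904) and was -0.73 as deposited (adjusted p = 0.0263). OsCIN3, the immediate neighbour of OsCIN2 on chromosome 4, averaged 17.8 ± 10.7 in 93-11 and 18.6 ± 5.73 in Nipponbare. Its difference was -0.09 ± 0.25 (SE, limma adjusted p = 0.874). OsCIN5 and OsCIN6 had no probe set paired with 1 gene, and no gene name of a vacuolar invertase or an invertase inhibitor matched.

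Neutral invertases, which act inside the cell, did not share one direction. OsNIN3 rose in 93-11 on scaled values, with 914 to 1208 in 93-11 and 606 to 688 in Nipponbare. Its log2 difference was 0.64 ± 0.09 (SE, limma adjusted p = 0.00014), but 0.29 as deposited (adjusted p = 0.385). OsNIN1 fell to 381 ± 35.2 in 93-11, against 507 ± 16.7 in Nipponbare, a difference of -0.40 (adjusted p = 0.00386). OsCYT-INV1 had 675 ± 147 in 93-11 and 787 ± 118 in Nipponbare, with -0.23 (adjusted p = 0.357). Within 93-11 it was highest on replicates 3 and 4, at 878 and 786, the arrays on which OsCIN2 was lowest. These arrays also had the lowest GAPDH 3′/5′ ratios of 93-11, and the match was not tested.

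Of the other sucrose synthases, OsSUS1 had 1 probe set that fell in 93-11, with 3690 ± 307 in 93-11 and 5067 ± 726 in Nipponbare (SD, n = 5 each). The difference was -0.45 ± 0.10 (SE, limma adjusted p = 0.00666). The second OsSUS1 probe set, of a kind whose probes can match related transcripts, had -0.59 (adjusted p = 0.0504) on scaled values and -0.94 as deposited (adjusted p = 0.027). For OsSUS2 the scaled mean was 5341 ± 717 in 93-11 and 6051 ± 304 in Nipponbare, a difference of -0.19 (adjusted p = 0.235). OsSUS4 had -0.21 (adjusted p = 0.473) and OsSUS5 0.26 (adjusted p = 0.39). The OsSUS6 probe sets went apart, at 0.34 (adjusted p = 0.335) and -0.57 (adjusted p = 0.0978). OsSUS7 had no probe set paired with 1 gene.

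Without OsCIN2, OsCIN7 and OsSUS3, the invertases and sucrose synthases counted 13 probe sets of 11 genes. On scaled values 1 was called higher and 3 were called lower in 93-11, with a median difference of -0.23. Among all probe sets paired with exactly 1 gene, as these are, 12.6% were called higher and 13.6% lower, with a median of 0.05, and among all rice probe sets 7.84% were called higher and 9.21% lower. As deposited 0 of the 13 were called higher and 6 lower, with a median of -0.58. The paired probe sets then had 1.68% higher and 17.8% lower calls and a median of -0.24, and all rice probe sets had 1.66% higher and 11.9% lower calls.

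**Figure D4:**
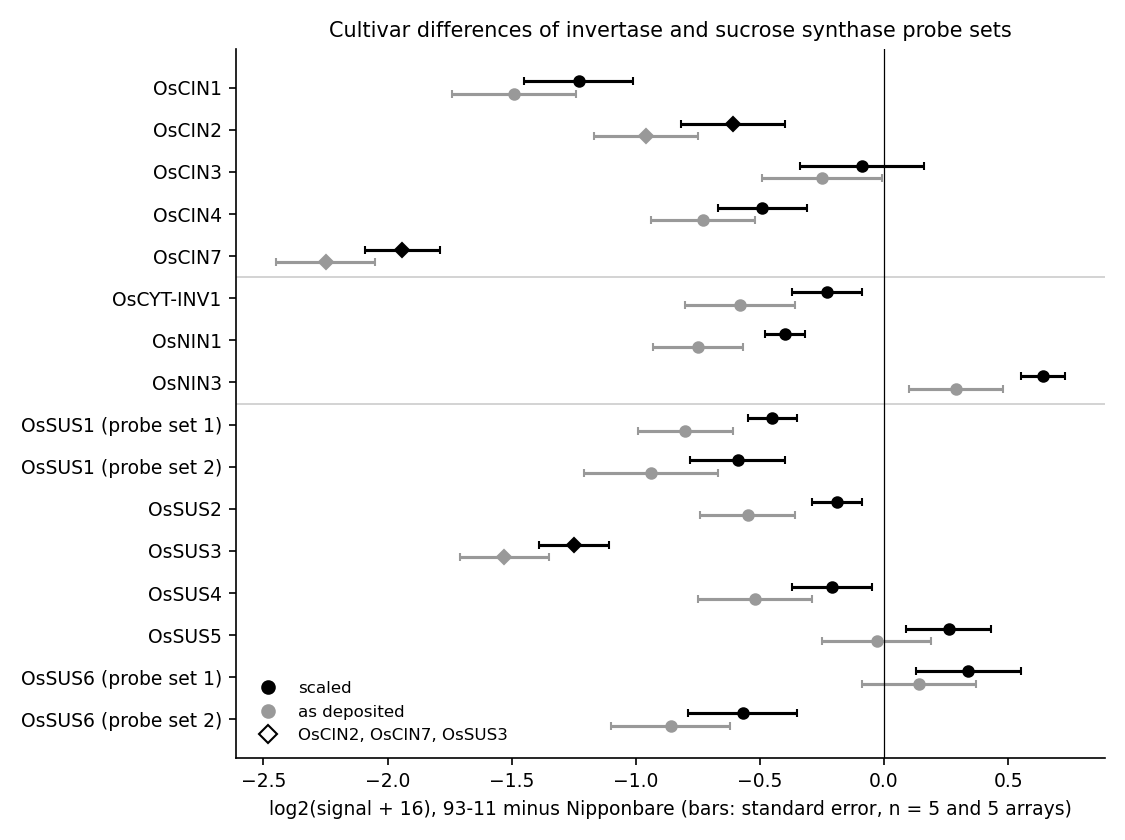
Log2(signal + 16) difference, 93-11 minus Nipponbare, of each invertase and sucrose synthase probe set (horizontal), after scaling (black) and as deposited (grey), with the SE from the limma fit over 5 arrays of each cultivar. Diamonds mark OsCIN2, OsCIN7 and OsSUS3. OsCIN7 lies lowest, at -1.94 after scaling, and OsNIN3 highest, at 0.64, and the values as deposited lie below the scaled ones throughout.

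Genes that make, move, use or sense sucrose and hexoses counted 55 probe sets of 44 genes. On scaled values 7 were called higher and 4 lower in 93-11, with a median difference of 0.10, beside 12.6% higher, 13.6% lower and a median of 0.05 over the paired probe sets. As deposited 1 was called higher and 4 lower, with a median of -0.22, beside 1.68%, 17.8% and -0.24. In sucrose synthesis, 0 of 7 probe sets rose and 2 fell, among them OsSPP2, a sucrose phosphate phosphatase, with -0.33 (limma adjusted p = 0.00965), and SPS4, a sucrose phosphate synthase, with -0.37 (adjusted p = 0.0191). Of 22 transport probe sets, 1 rose and 1 fell. OsSWEET11, a sucrose exporter, rose to 7361 ± 897 in 93-11, against 5345 ± 405 in Nipponbare, with 0.46 (adjusted p = 0.00325), and had 0.10 as deposited (adjusted p = 0.797). OsSUT2, a vacuolar sucrose transporter, fell by 0.50 on the log2 scale (adjusted p = 0.011) in 1 probe set, and its other probe set had 0.05 (adjusted p = 0.844).

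Hexokinases phosphorylate the hexoses that cleavage releases. Of 9 probe sets of hexose and UDP-glucose use, 1 rose and 1 fell. The hexokinase gene LOC4342654 had 49.1 ± 5.41 in 93-11 and 142 ± 21.0 in Nipponbare, with a difference of -1.27 (limma adjusted p = 1.54e-05), and LOC4339420 had 0.35 (adjusted p = 0.0181), which was 0.01 as deposited (adjusted p = 0.988). Of 17 probe sets of trehalose phosphate and SnRK1 signalling, which reports the sugar status of a cell, 5 rose and 0 fell on scaled values, beside 12.6% and 13.6% of the paired probe sets, and 1 rose as deposited, beside 1.68%. OsTPP4, a trehalose phosphate phosphatase, rose to 239 ± 31.8 in 93-11, against 105 ± 28.6 in Nipponbare, with 1.10 (adjusted p = 0.000429) after scaling and 0.77 as deposited (adjusted p = 0.0437). The other 4 that rose belong to the SnRK1 kinase genes OSK3 and OSK24, whose probe sets can share probes, and the highest was OSK3 with 0.36 (adjusted p = 0.00758), which was 0.01 as deposited (adjusted p = 0.985).

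Markers of other tissues also differed between the cultivars. The leaf gene CAB2R, a chlorophyll-binding protein, had differences of -4.04 and -4.45 in its 2 probe sets (limma adjusted p = 1.79e-05 and 2.33e-06), with 657 ± 674 in 93-11 and 7949 ± 741 in Nipponbare in the first. The other 4 leaf probe sets, of OsrbcS, had a mean log10 signal below 2.5, and 1 of them rose in 93-11. The anther regulators OsGAMyb and TDR had -1.01 (adjusted p = 2.32e-05) and -1.0 (adjusted p = 0.0383), and CYP703A3 had 0.04 (adjusted p = 0.948). TDR was low, at 20.2 ± 15.3 in 93-11 and 54.7 ± 23.9 in Nipponbare, against 197 ± 14.2 and 415 ± 69.5 for OsGAMyb. Of the 11 endosperm probe sets, 1 rose and 0 fell. It was 1 of GLUA2, a glutelin storage protein, of a kind whose probes can match related transcripts. It rose to 99.3 ± 13.8 in 93-11, against 56.1 ± 16.9 in Nipponbare, with 0.70 (adjusted p = 0.0134) after scaling and 0.41 as deposited (adjusted p = 0.269). The other GLUA2 probe set had -0.29 (adjusted p = 0.507) after scaling. Of the 13 young panicle probe sets, 4 rose and 2 fell, beside 12.6% and 13.6% of the paired probe sets. The part of tissue or stage in the differences of OsCIN2, OsCIN7 and OsSUS3 was not tested.

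The genes most like OsCIN2 over the 10 arrays, among 2056 probe sets of named genes that averaged over 2.0 in log10 signal, were Melibiase (r = 0.94), OsPP2C58 (r = 0.93) and OsRPA32-3 (r = 0.92). Their deviations from the cultivar means correlated with those of OsCIN2 at r = 0.90, 0.89 and 0.85, on the same arrays by which they were picked. As deposited 1 of the 3 was again among the 3 most alike. For OsCIN7 they were OsVDAC1 (r = 0.99), RCABP69 (r = 0.99) and HSP81-3 (r = 0.98), with 0.76, 0.64 and 0.68 within cultivars. For OsSUS3 they were SPL15 (r = 0.98), CHLH (r = 0.98) and CPA (r = 0.98), with 0.52, 0.44 and 0.32 within cultivars. The matches to OsCIN7 had log2 differences of -3.88, -2.77 and -1.11, and those to OsSUS3 -1.26, -1.85 and -1.87. The cultivar difference thus enters r over the 10 arrays. OsVDAC1 averaged 58.0 in 93-11 and 1046 in Nipponbare after scaling, and the filter at 2.0 used the mean of both cultivars. All of these points share arrays and scaling, and the values are given as a description.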

How the data were processed

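GCOS 1.3 is the software that the submitters' processing notes name. The authors deposited 1 signal intensity for each probe set and array, positive and on a linear scale. For the summarisation of probes and any scaling target, nothing is stated in those sources. In all, the 57381 probe sets held 123 controls, which were left out. Of the 57258 others, 22436 were paired with exactly 1 gene, 95 with several and 34727 with none. No 2 arrays held identical values.

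Each array was scaled to a common trimmed mean (2% cut at each end). For the fit of log2(signal + 16), lmFit and eBayes of limma 3.58.1 (R 4.3.3) were used with an intensity trend, two-sided, with Benjamini-Hochberg adjustment over all rice probe sets, and "called", "rose" and "fell" mean an adjusted p under 0.05. The number of arrays, 5 per cultivar, limits the precision. The script was tested on simulated data. Gene names come from the platform annotation and from RefSeq (ASM3414082v1), by symbol or synonym. Most RefSeq symbols are locus numbers, so named genes in the search for alike patterns include those named by a synonym. Genes whose matching synonym has another meaning were left out.

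Named genes were every invertase and sucrose synthase and, in each other list, among those called the 2 that rose most and the 2 that fell most, plus the 3 genes most alike to each member. CAB2R and the other markers are from the lists of cell type markers. The members and lists were chosen with earlier results of these data known. The alternatives were other scalings, constants, a filter, variance models, a replicate block and arrays left out.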

Additional observations from a re-analysis of the deposited data

Results flagged for a closer look

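Among 50 groups of 5 values examined, 4 had 1 array farther from the others than Dixon's 95% limit allows, and chance alone flags about 1 in 20 groups. On 93-11 replicate 5 the second OsSUS1 probe set had a scaled signal of 1500, while the other 93-11 arrays had 2322 to 2579, and OsSUS2 had 4104, while the others had 5438 to 5936. OsSUS3 as deposited had 32.6 on 93-11 replicate 4, below 40.7 to 43.8 on the others, and after scaling the array no longer stood apart. The 3′/5′ ratio of the actin control was 2.08 on Nipponbare replicate 5, against 1.55 to 1.68 on the other Nipponbare arrays. On 93-11 replicate 5 it was 2.07, the highest in 93-11, and the GAPDH ratio of the arrays numbered 5 was 6.15 in 93-11 and 5.72 in Nipponbare.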

How the results depend on the processing

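OsCIN2, OsCIN7 and OsSUS3 kept a lower signal in 93-11 under each alternative that gave a value. With single arrays left out, the differences were -0.75 to -0.44 for OsCIN2, -2.02 to -1.82 for OsCIN7 and -1.32 to -1.20 for OsSUS3. OsCIN2 was at -0.61 on scaled values and with a filter at 2.0 on the average log10 signal, and at -0.96 as deposited. It was at -0.63 by quantile normalization, -0.71 with the hybridization controls, -0.58 with 64 added and -0.72 without both arrays numbered 5. OsCIN7 moved to -2.25 as deposited and to -1.52 with 64 added. OsSUS3 moved to -1.53 as deposited, -1.05 by quantile normalization, -1.50 with 1 added and -0.83 with 64 added, and the filter left it out. The difference in the ratio of OsCIN2 to OsCIN7 was 0.86 with 64 added, against 1.52 without a constant, and that of OsCIN2 to OsSUS3 was 0.10, against 0.90. The cause of these moves was not tested.

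Calls numbered 4490 higher and 5274 lower among all rice probe sets. As deposited 951 were higher, with the hybridization controls 1484 were higher, and with the filter 2660 were lower. Leaving out single arrays gave 3557 to 4781 higher and 4718 to 5320 lower.

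Counts in the lists, without the 3 genes, also moved. As deposited, lower calls were 2 in cell wall invertases and 3 in sucrose synthases, and higher calls were 0 in neutral invertases, 0 in transport, 0 in hexose use and 1 in signalling. With the hybridization controls, lower calls were 0 in neutral invertases, sucrose synthases, sucrose synthesis and transport, and higher calls were 0 in transport and hexose use and 1 in signalling. Sucrose synthases had 2 lower calls by quantile normalization, with 1 added, and with the filter, and 3 without both arrays numbered 5. With the filter, lower calls were 0 in cell wall invertases and hexose use. Without a trend, 2 cell wall invertases were lower and 3 signalling probe sets higher. Hexose use had 2 higher calls by quantile normalization, with robust eBayes and without both arrays numbered 5, where transport had 2 and signalling 1 lower calls. With single arrays left out, lower calls were 1 to 2 in cell wall invertases (2 without Nipponbare replicate 2), 1 to 2 in sucrose synthases (2 without 93-11 replicate 5 or Nipponbare replicate 5), 1 to 2 in sucrose synthesis (1 without Nipponbare replicate 1 or 4) and 0 to 1 in signalling (1 without 93-11 replicate 5). Higher calls were 1 to 3 in hexose use (3 without 93-11 replicate 5) and 3 to 7 in signalling (3 without replicate 1 of either cultivar or Nipponbare replicate 5).

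The labels give both cultivars the same replicate numbers and name no shared source behind them. The deviations of the probe sets from their cultivar means, not the signals themselves, were correlated between same-numbered arrays. These correlations were 0.05, 0.01, -0.05, 0.48 and 0.50. By these deviations, 2 of 5 arrays correlated best with their own number. With the replicate block, 5205 probe sets were called higher and 5484 lower, the differences of OsCIN2, OsCIN7 and OsSUS3 stayed at -0.61, -1.94 and -1.25, and sucrose synthases had 2 lower and hexose use 2 higher calls. Paralogs by protein sequence, at 35% or 50% identity, were not run.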

Other observations

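Trehalose phosphate phosphatases remove the phosphate from trehalose phosphate, a signal of sucrose status. On 93-11 replicate 5, OsTPP7 had a scaled signal of 3944 in 1 probe set and OsTPP1 had 1890. The other 93-11 arrays had 45.5 to 189 for OsTPP7 and 94.7 to 122 for OsTPP1, and the Nipponbare arrays had 67.9 to 341 for OsTPP7 and 133 to 243 for OsTPP1. The same array had the highest OsCIN2 signal of 93-11 (1249), the low OsSUS1 and OsSUS2 signals given above, and the highest CAB2R signal of 93-11 (1814 in its first probe set). OsTPP1 and OsTPP7 were named after their values were seen. Without this array the OsCIN2 difference was -0.75, against -0.61 with it, and the OsCIN7 and OsSUS3 differences without it were -1.93 and -1.26.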
